A study of Mus musculus with 27 samples.

Results

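9 genes of intestinal bile acid and cobalamin (vitamin B12) handling were followed through 27 mouse intestine RNA libraries: Slc10a2, Fabp6, Fgf15, Slc51a, Slc51b, Nr0b2, Nr1h4, Cubn and Amn. They were chosen by name, and all 9 were found among the 55401 genes of the deposited table. Every library came from the intestine of wild-type male C57BL/6 mice, 6 to 8 weeks old, and 3 libraries made up each of 9 groups. The control mice had no treatment. Mice given 60Co gamma rays (dose rate 72 R/min) received 6 Gy and were sampled at 6 h or 24 h, or received 15 Gy and were sampled at 6 h, 24 h or 3 d. CBLB502, a flagellin-derived agonist of Toll-like receptor 5, was injected intraperitoneally at 0.2 mg/kg. It was given alone, with 6 Gy (its timing is not stated) or with 15 Gy (0.5 h before, by the series' design text), and those mice were sampled at 24 h. The design text names a PBS control group, whereas the labels of the control samples give no treatment. The labels do not say which part of the intestine was taken, nor if 1 library stands for 1 mouse, so the tests speak of the variation among libraries, which may be technical.

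Bile acids are made in the liver, secreted into the gut and taken back up mainly in the terminal ileum. There the apical transporter Slc10a2 brings them into enterocytes, the binding protein Fabp6 carries them, and the 2 subunits Slc51a and Slc51b form the basolateral exporter that passes them to the portal blood. The bile acid receptor Nr1h4 (FXR) senses them in the cell and induces Fgf15, a hormone that restrains bile acid synthesis in the liver, and Nr0b2 (SHP), a repressor. Cobalamin bound to intrinsic factor is taken up in the same stretch of gut by the receptor cubam, made of Cubn (cubilin) and Amn (amnionless), which anchors Cubn in the membrane.

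Promoter windows are shown because Nr1h4 binds, with its partner RXR, an inverted repeat of a short hexamer with a 1-base spacer (IR-1), and several of these genes are known targets of that receptor. The windows run from 250 bases before to 50 bases after the RefSeq start (build GRCm38.p6), and 8 of the 9 genes, all but Fgf15, had one. Both strands were searched for AGGTCANTGACCT with up to 3 mismatches among its 12 fixed letters, and the closest match is in capitals. Of the 5 windows printed, Slc51a lies at chr16:32487830-32488129 (minus strand), Slc51b at chr9:65422724-65423023 (minus), Cubn at chr2:13491827-13492126 (minus), Fabp6 at chr11:43601513-43601812 (minus) and Nr0b2 at chr4:133553126-133553425 (plus).
Slc51a: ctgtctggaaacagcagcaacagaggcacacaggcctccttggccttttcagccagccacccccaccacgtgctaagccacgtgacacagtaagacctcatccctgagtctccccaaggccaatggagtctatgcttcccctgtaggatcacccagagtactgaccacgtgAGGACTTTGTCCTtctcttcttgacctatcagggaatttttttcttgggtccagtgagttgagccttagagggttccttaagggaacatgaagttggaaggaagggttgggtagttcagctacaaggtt
Slc51b: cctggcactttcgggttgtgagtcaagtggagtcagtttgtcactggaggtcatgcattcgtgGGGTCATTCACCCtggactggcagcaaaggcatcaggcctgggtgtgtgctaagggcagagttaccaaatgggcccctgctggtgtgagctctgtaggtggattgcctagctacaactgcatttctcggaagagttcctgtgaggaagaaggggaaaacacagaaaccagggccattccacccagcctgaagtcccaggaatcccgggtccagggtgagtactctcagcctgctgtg
Cubn: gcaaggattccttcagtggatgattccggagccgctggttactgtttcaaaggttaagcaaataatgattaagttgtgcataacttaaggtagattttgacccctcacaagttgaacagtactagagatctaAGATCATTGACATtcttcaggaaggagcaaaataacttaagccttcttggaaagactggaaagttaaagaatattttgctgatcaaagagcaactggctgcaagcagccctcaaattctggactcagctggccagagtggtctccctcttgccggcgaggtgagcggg
Fabp6: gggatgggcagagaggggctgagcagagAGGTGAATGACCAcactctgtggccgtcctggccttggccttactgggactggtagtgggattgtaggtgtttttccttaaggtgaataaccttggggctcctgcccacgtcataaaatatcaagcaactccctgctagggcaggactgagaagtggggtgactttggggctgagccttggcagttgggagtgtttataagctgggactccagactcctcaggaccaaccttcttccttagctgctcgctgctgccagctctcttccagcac
Nr0b2: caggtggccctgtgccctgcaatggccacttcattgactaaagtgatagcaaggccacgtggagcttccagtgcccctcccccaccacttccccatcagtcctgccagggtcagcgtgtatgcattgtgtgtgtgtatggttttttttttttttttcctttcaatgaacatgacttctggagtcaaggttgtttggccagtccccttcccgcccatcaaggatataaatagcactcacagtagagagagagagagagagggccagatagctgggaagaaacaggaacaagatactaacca
A match was found in 4 of the 8 windows, those of Fabp6 and Cubn with 2 mismatches and those of Slc51a and Slc51b with 3. Among all 32851 windows of that table, 11.4% held a match with up to 3 mismatches and 1.14% one with up to 2. The hexamer AGGTCA alone, which is part of the longer motif, was in 3 of the 8 windows (Slc51a, Slc51b and Nr1h4) and in 16.3% of all windows. A match is a description of the letters and not a binding site, and the Nr0b2 window is printed with no capitals because its closest match had 4 mismatches.

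The libraries held 57.4 M to 87.1 M counts each. Levels are given as CPM, counts scaled to a common library size, after TMM scaling, and as FPKM, which also divides by gene length, where genes are compared with each other. Differences are edgeR quasi-likelihood log2 fold changes ± SE with Benjamini-Hochberg adjusted p over 11118 genes, and a gene is called changed where that p is under 0.05. All 8 comparisons with the control share the same 3 control libraries. The 6 libraries taken 24 h after 6 Gy, with or without CBLB502, stand apart: 16 exocrine pancreas genes summed to between 87.9 and 8426 CPM there and to at most 33.4 CPM elsewhere, and 6 fibroblast genes to between 30.4 and 44.1 CPM against at most 12.8 CPM. Leaving out these 6 libraries ended 3 of the 29 calls that could be refitted (Slc51b at 15 Gy 6 h, Nr1h4 at 15 Gy with CBLB502 and Nr1h4 from 15 Gy 6 h to 24 h), and the part of those cells in the 6 Gy 24 h values was not tested. In bulk RNA, fewer cells of a type and less RNA per cell cannot be told apart.

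The genes that define ileal enterocytes were almost absent. Fabp6 had no count in 22 of the 27 libraries and at most 20 counts in the other 5 (Fabp6, chromosome 11, 43596049 to 43601540). Fgf15 (chromosome 7, 144896531 to 144900953) had no count in 21 libraries. Its counts were 50, 0 and 0 at 6 Gy 6 h, 111, 0 and 9 at 15 Gy 24 h, and 9, 119 and 263 at 15 Gy 3 d, with no count in any library of the other 6 groups. Both genes stayed under 1 FPKM in all 27 libraries and were not tested. When no filter was applied, the nearest to a call was Fgf15 at 15 Gy 3 d, with an adjusted p of 0.0633 by edgeR, present in 3 of 3 libraries against none of the control. Slc10a2 (chromosome 8, 5083219 to 5105351) was detected in all 27 libraries, but with a control level of only 0.876 ± 0.234 FPKM (SD, n = 3). The label ileal therefore goes against these data, and the 9 genes are called here the bile acid and cobalamin genes.

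The genes that were well expressed spanned a wide range in the control. Per length, Slc51b stood at 224 ± 14.6 FPKM and Slc51a at 133 ± 25.4 FPKM (SD, n = 3 each). The cobalamin receptor partners followed, Amn at 70.5 ± 16.4 FPKM and Cubn at 27.9 ± 11.0 FPKM. Nr1h4 was at 3.78 ± 0.857 FPKM. Nr0b2 had no count in any control library. The order by FPKM is thus the exporter, then the cobalamin receptor, then the nuclear receptor.

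**Figure D1:**
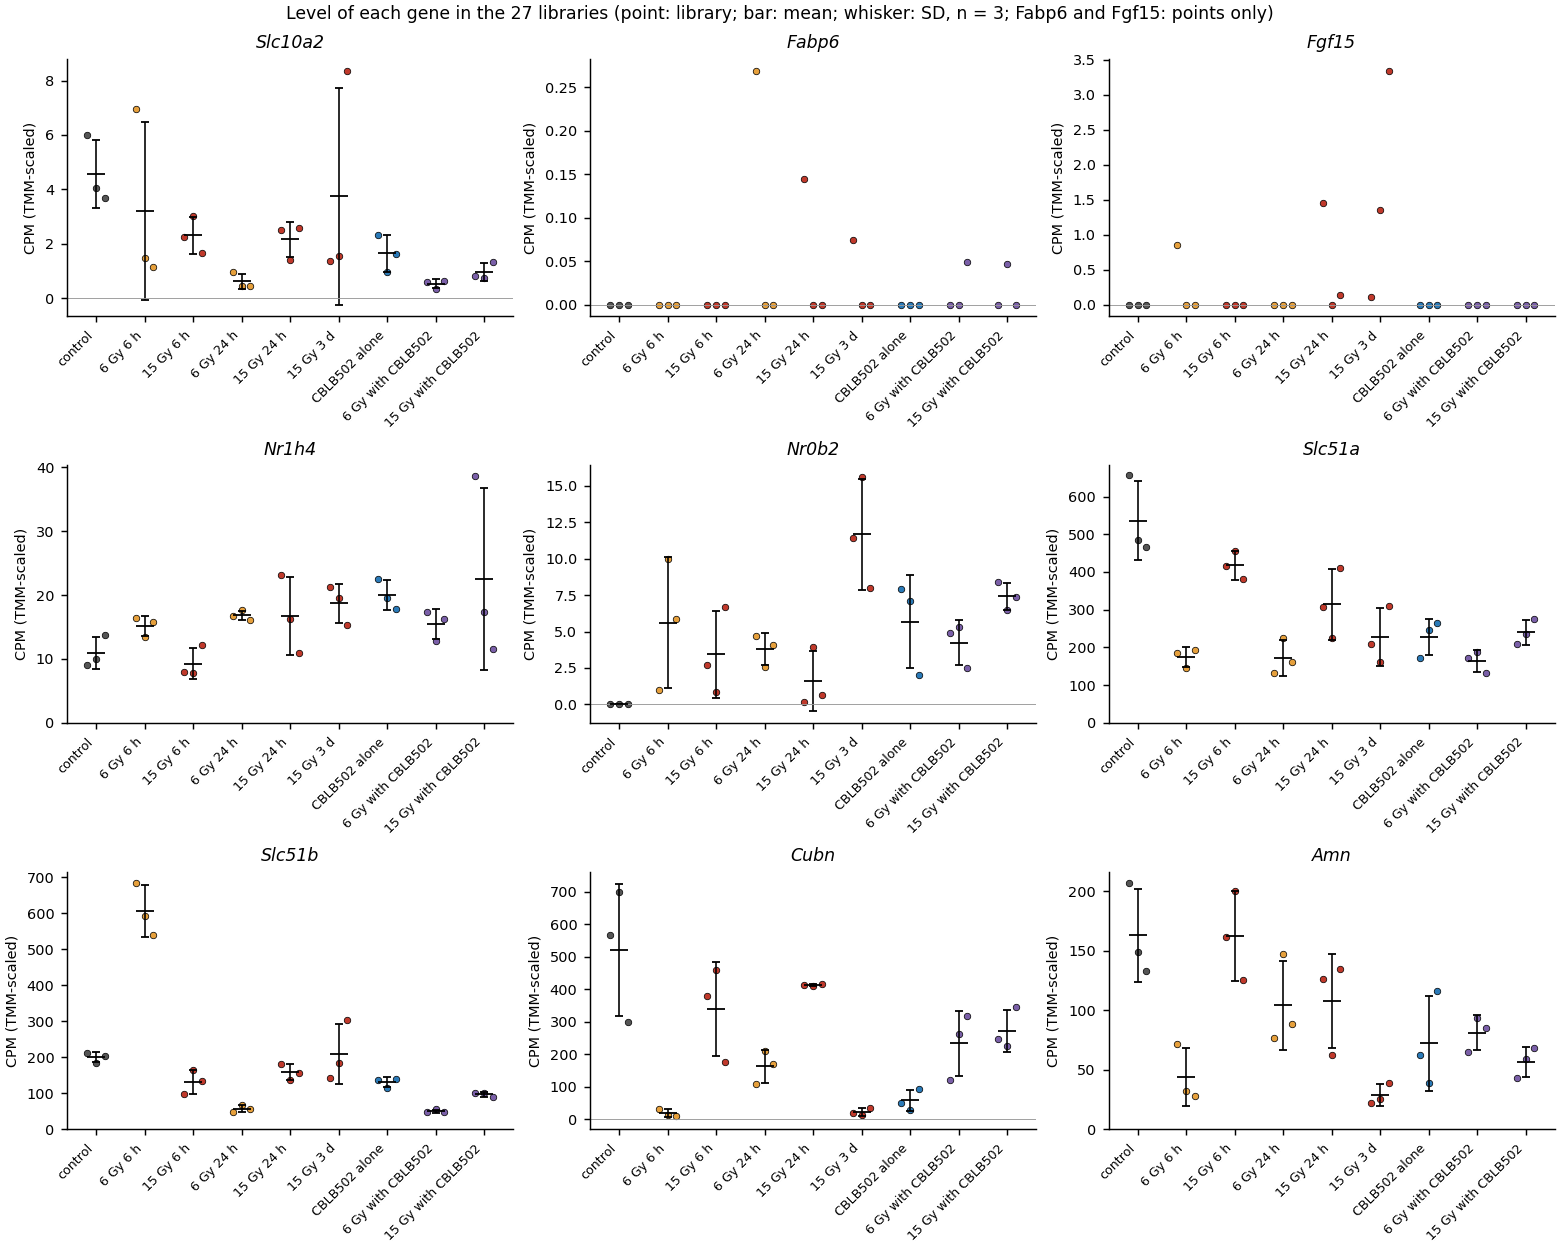
TMM-scaled CPM (y axis, linear, a scale of its own in each panel) of the 9 genes in the 27 libraries, by group (x axis). Each point is a library, the bar is the mean and the whisker the SD (n = 3), and Fabp6 and Fgf15 are shown as points only. Slc51b at 6 Gy 6 h lies between 540.1 and 683 CPM, above every other library, and Nr0b2 is at 0 in the 3 control libraries.

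Slc10a2, the apical uptake transporter, was highest in the control and lowest in the 6 Gy 24 h groups. Its CPM was 6.00, 4.04 and 3.68 in the control, 6.96, 1.46 and 1.15 at 6 Gy 6 h, and 2.25, 3.02 and 1.66 at 15 Gy 6 h. At 24 h it was 0.943, 0.449 and 0.445 after 6 Gy and 2.51, 1.40 and 2.56 after 15 Gy, and at 3 d after 15 Gy it was 1.36, 1.53 and 8.36. With CBLB502 it was 2.33, 0.975 and 1.63 (alone), 0.580, 0.331 and 0.644 (6 Gy) and 0.824, 0.732 and 1.33 (15 Gy). Single libraries set the means of 2 groups: the first of 6 Gy 6 h and the third of 15 Gy 3 d were above all control libraries while their companions were below them, and each of these 2 libraries also held more Fgf15 than its companions. Slc10a2 fell at 6 Gy 24 h (log2 fold change -2.90 ± 0.69, adjusted p = 0.00358, edgeR), with no overlap between the groups. It fell also at 6 Gy with CBLB502 (-3.14 ± 0.70, adjusted p = 0.00181) and at 15 Gy with CBLB502 (-2.25 ± 0.67, adjusted p = 0.0255). The last call was lost with the proximal marker score (the mean centred log2 CPM of 15 genes of the upper small intestine) as a covariate (-0.92, adjusted p = 0.398), with limma on log2(FPKM + 1), without control replicate 1 and without replicate 1 or 2 of the treated group. Slc10a2 passed the filter on low values with only 3 libraries at 1 FPKM or more, the fewest accepted. These were control replicate 1 (1.14), 6 Gy 6 h replicate 1 (1.21) and 15 Gy 3 d replicate 3 (1.79), none from a group called low. The filter was not applied anew when libraries were left out or groups fitted alone. Under that limit, the calls at 6 Gy 24 h and at 6 Gy with CBLB502 held in all 14 alternatives, the proximal marker score among them. The differences at 15 Gy 6 h (-0.99), at 15 Gy 3 d (-0.29) and with CBLB502 alone (-1.48) were not called, and each changed sign with that score (0.09, 0.63 and 0.31). At 6 Gy 6 h the difference was -0.52 ± 0.64 (adjusted p = 0.591), and without replicate 1 of that group it passed the threshold at an adjusted p of 0.0448. Of 7 tested other markers of the distal small intestine, 5 fell and 1 rose at 6 Gy 24 h, where 16.4% of all tested genes were lower (median -1.12). With 6 Gy and CBLB502 6 fell and 1 rose (17.5% of all lower, median -1.18), and with 15 Gy and CBLB502 4 fell (8.20% of all lower, median -0.81). These markers also fell where Slc10a2 was not called: 3 of 7 at 15 Gy 3 d (15.6% of all lower, median -0.90), 3 at 6 Gy 6 h (15.3%, -0.54) and 2 at 15 Gy 6 h (16.8%, -0.72). Neither with CBLB502 alone nor at 15 Gy 24 h did edgeR call any (medians -0.53 and -0.49). There 5.74% and 4.94% of all tested genes were called. At an unadjusted p under 0.05 there were 4 and 2 of the 7, and 2396 and 2402 of all 11118. DESeq2 called 2 and 1 of the 7. Beyond these values, whether the stretch of gut sampled differed between groups was not tested.

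Nr1h4 encodes the bile acid receptor FXR (chromosome 10, 89454234 to 89506658). Its CPM was 9.05, 9.99 and 13.7 in the control, and its lowest mean was at 15 Gy 6 h, where the libraries gave 7.97, 7.74 and 12.1. It was 16.4, 13.4 and 15.7 at 6 Gy 6 h, 16.7, 17.6 and 16.1 at 6 Gy 24 h and 23.1, 16.3 and 10.9 at 15 Gy 24 h. At 15 Gy 3 d it was 21.3, 19.5 and 15.3, with CBLB502 alone 22.5, 19.6 and 17.8, with 6 Gy and CBLB502 17.3, 12.8 and 16.2, and with 15 Gy and CBLB502 38.7, 17.4 and 11.6. All 3 libraries of 15 Gy 3 d and of CBLB502 alone were above all control libraries, yet neither difference passed the test (0.77 ± 0.32, adjusted p = 0.0727, and 0.87 ± 0.32, adjusted p = 0.111, edgeR). The former passed with either limma fit and with the 2 groups fitted alone. The receptor was called higher at 15 Gy with CBLB502 against the control (1.05 ± 0.32, adjusted p = 0.0279), where the groups overlap and 1 library is far above the others. That call was lost without that library (replicate 1), without control replicate 1 or 2, with the groups fitted alone, without the 6 libraries of 6 Gy at 24 h, with the proximal marker score as a covariate (0.69, adjusted p = 0.297) and with no filter on low values. A rise from 15 Gy 6 h to 15 Gy 24 h (0.85 ± 0.32, adjusted p = 0.0446) was lost in 11 of 15 alternatives, among them the omission of replicate 1 or 2 of either group.

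Nr0b2 encodes SHP, an orphan nuclear receptor that represses other nuclear receptors and is a known target of FXR (chromosome 4, 133553376 to 133556536). It was the one tested gene of 11118 with no count in the 3 control libraries and at least 10 counts in each of the other 24 libraries. By the same count 6 Gy 6 h also had 1 such gene, Dkk4, named after its value was seen, and no other group had one. The lowest count of Nr0b2 in those 24 libraries was 13 (15 Gy 24 h replicate 1), not far above the minimum of 10. This search thus describes Nr0b2 and does not test it. After irradiation its CPM was 1.01, 10.0 and 5.83 at 6 Gy 6 h, 2.73, 0.846 and 6.69 at 15 Gy 6 h, and 4.71, 2.57 and 4.04 at 6 Gy 24 h. After 15 Gy it was 0.170, 3.93 and 0.655 at 24 h and 11.4, 15.6 and 8.02 at 3 d. With CBLB502 it was 7.93, 7.08 and 2.04 (alone), 4.89, 5.33 and 2.50 (6 Gy) and 8.38, 6.47 and 7.37 (15 Gy). The spread within a group was thus large at 6 h and at 15 Gy 24 h, and small at 15 Gy with CBLB502. Set against the floor of 3 counts over the control group, the group means were at least 388-fold higher at 6 Gy 6 h, at least 236-fold at 15 Gy 6 h, at least 260.1-fold at 6 Gy 24 h and at least 109-fold at 15 Gy 24 h. At 15 Gy 3 d the mean was at least 803-fold higher, with CBLB502 alone at least 391-fold, with 6 Gy and CBLB502 at least 292-fold, and with 15 Gy and CBLB502 at least 510.2-fold. These bounds cover counting error in the control only and not the spread among libraries. At 15 Gy 24 h 1 library, at 3.93 CPM, carried most of the mean. Nr0b2 was called higher in all 8 comparisons with the control, with adjusted p from 3.5e-05 (15 Gy 3 d) to 0.00590 (15 Gy 24 h). The gene passed the filter on low values through the treated groups alone, so a difference from the control was required for it to be tested, and the 8 calls rest on the same 3 libraries at 0. The call at 15 Gy 24 h was lost with limma at either pseudocount and with the 2 groups fitted alone, and that at 15 Gy 6 h with limma on log2(FPKM + 1).

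Between treated groups, which do not use the control, Nr0b2 rose from 15 Gy 24 h to 15 Gy 3 d, 7.35-fold in mean CPM (log2 fold change 2.87 ± 0.91, adjusted p = 0.0260, edgeR). All libraries at 3 d were above all those at 24 h. The call was lost without 15 Gy 24 h replicate 1 or 3, without 15 Gy 3 d replicate 2 and with the 2 groups fitted alone. Liver is a rich source of Nr0b2. The 10 hepatocyte genes looked at summed to 2.79 to 4.33 CPM in the control, to 14.1 to 48.6 CPM at 6 Gy 6 h and to 6.12 to 30.3 CPM at 15 Gy 3 d. With 6 Gy and CBLB502 they summed to 2.49 to 36.5 CPM, and 2 of the 4 tested were called higher there. They summed to 4.76 to 6.40 CPM at 15 Gy 6 h, to 2.34 to 3.70 CPM at 6 Gy 24 h, and to 2.88 CPM or more at 15 Gy 24 h, overlapping the control. With CBLB502 alone they summed to 1.68 to 3.92 CPM and with 15 Gy and CBLB502 to 3.13 to 3.87 CPM, while Nr0b2 averaged 5.68 ± 3.19 and 7.41 ± 0.955 CPM in those groups (SD, n = 3). The summed hepatocyte CPM was thus above every control library in all 3 libraries of 6 Gy 6 h, 15 Gy 3 d and 15 Gy 6 h. It was below the highest control library in all 3 of 6 Gy 24 h, CBLB502 alone and 15 Gy with CBLB502. By gene, 1 of the 4 tested was called higher at 6 Gy 6 h and 1 at 15 Gy 3 d, but at 15 Gy 6 h none was higher and 1 was lower. The mean centred log2 CPM of the tested hepatocyte genes was -1.12 ± 0.55 at 15 Gy 6 h and -0.51 ± 0.48 in the control (SD, n = 3). The part of liver RNA in the Nr0b2 values was otherwise not tested.

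The 2 subunits of the bile acid exporter, which work only as a pair, moved apart at 6 Gy 6 h: Slc51b rose while Slc51a fell. Slc51b (chromosome 9, 65412714 to 65422955) was at 212, 184 and 202 CPM in the control and at 683, 593 and 540.1 CPM at 6 Gy 6 h. This is 3.04-fold in mean CPM (log2 fold change 1.60 ± 0.22, adjusted p = 1.1e-05, edgeR). The 6 Gy 6 h libraries were the highest of all 27. Slc51a (chromosome 16, 32474504 to 32487879) was at 656, 485 and 466 CPM in the control and at 186, 145 and 192 CPM at 6 Gy 6 h, a 3.08-fold fall (-1.62 ± 0.26, adjusted p = 6.3e-05). Both calls held in all 15 alternatives. In the same comparison 8 of 12 enterocyte markers fell, with a median of -0.89, where 15.3% of all tested genes were lower.

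At the higher dose and the same time both subunits were below the control. At 15 Gy 6 h Slc51a was at 415, 456 and 381 CPM and Slc51b at 97.2, 163 and 134 CPM, in each case under all control libraries. Of the pair only Slc51b passed the test (-0.60 ± 0.21, adjusted p = 0.0394), and the call was lost in 9 of 15 alternatives, among them the omission of any 1 control library or of 15 Gy 6 h replicate 1 or 3. Compared directly at 6 h, 15 Gy against 6 Gy, Slc51b was lower by 4.60-fold (-2.20 ± 0.22, adjusted p = 1.3e-07) and Slc51a higher by 2.40-fold (1.26 ± 0.25, adjusted p = 3.9e-04). With Cubn and Amn, 3 of the 7 tested genes were higher and 1 lower after 15 Gy, and 43.2% of all tested genes were called (20.2% higher, 23.0% lower).

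By 24 h after 6 Gy both subunits were low. Slc51a was at 131, 225 and 162 CPM (-1.63 ± 0.26, adjusted p = 1.4e-04) and Slc51b at 46.9, 67.2 and 55.9 CPM (-1.81 ± 0.22, adjusted p = 1.4e-05). With CBLB502 and 6 Gy the values were 173, 187 and 131 CPM for Slc51a (-1.71 ± 0.26, adjusted p = 7.5e-05) and 47.6, 54.5 and 46.2 CPM for Slc51b (-2.01 ± 0.22, adjusted p = 5.4e-06). These 2 groups held the lowest Slc51b of the series. In them 9 and 8 of 12 enterocyte markers fell, with medians of -0.78 and -0.72, where 16.4% and 17.5% of all tested genes were lower.

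After 15 Gy the mean of Slc51a was lower at each later time, and Slc51b at 3 d overlapped the control. Neither step of Slc51a was called by edgeR, and the libraries overlapped at both. From 6 h to 24 h the difference was -0.41 ± 0.25 (adjusted p = 0.221) and from 24 h to 3 d -0.47 ± 0.25 (adjusted p = 0.181). At 24 h Slc51a was at 307, 224 and 411 CPM, all below the control, but the difference did not pass the test (-0.77 ± 0.25, adjusted p = 0.0775). It passed with DESeq2 and when 15 Gy 24 h replicate 3 was left out. At 3 d Slc51a was at 210.1, 161 and 310.1 CPM and had fallen (-1.24 ± 0.25, adjusted p = 9.3e-04). Slc51b was at 181, 136 and 156 CPM at 24 h and at 142, 184 and 302 CPM at 3 d, not called against the control (0.07 ± 0.21, adjusted p = 0.833). Without the third 3 d library that difference was -0.29.

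Under CBLB502 alone Slc51a was at 173, 246 and 264 CPM, less than any control library (-1.23 ± 0.25, adjusted p = 0.00736). The call was lost without control replicate 1, with the 2 groups fitted alone and with a proximal marker score as a covariate. That score was -0.61 ± 0.14 in the control, 0.71 ± 0.32 with CBLB502 alone and 0.34 ± 0.42 with 15 Gy and CBLB502 (SD, n = 3). Slc51b was at 137, 114 and 139 CPM, also below all control libraries, and did not pass the test (-0.62 ± 0.21, adjusted p = 0.0908). With 15 Gy and CBLB502 both had fallen against the control: Slc51a, at 209, 235 and 275 CPM, by -1.16 ± 0.25 (adjusted p = 0.00382), and Slc51b, at 100.3, 101 and 88.6 CPM, by -1.04 ± 0.21 (adjusted p = 0.00259). Both of these calls were lost with the proximal marker score as a covariate.

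The ratio of the partners within a library, which needs no scaling between libraries, showed how far 6 Gy 6 h lay from the rest. The FPKM of Slc51b over that of Slc51a was 1.71 ± 0.252 in the control and 15.9 ± 2.95 at 6 Gy 6 h (SD, n = 3). It was 4.20 ± 1.07 at 15 Gy 3 d, 2.68 ± 0.793 with CBLB502 alone and 2.37 ± 0.567 at 15 Gy 24 h. The other 4 groups lay between 1.38 ± 0.183 (6 Gy with CBLB502) and 1.85 ± 0.362 (15 Gy with CBLB502). Each subunit overlaps a gene on the opposite strand, Slc51a (mean count 20334 over the 27 libraries) the gene Pcyt1a (6853) and Slc51b (13275) the gene Rasl12 (396). Whether the counting used strand is not given in the sources used here.

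**Figure D2:**
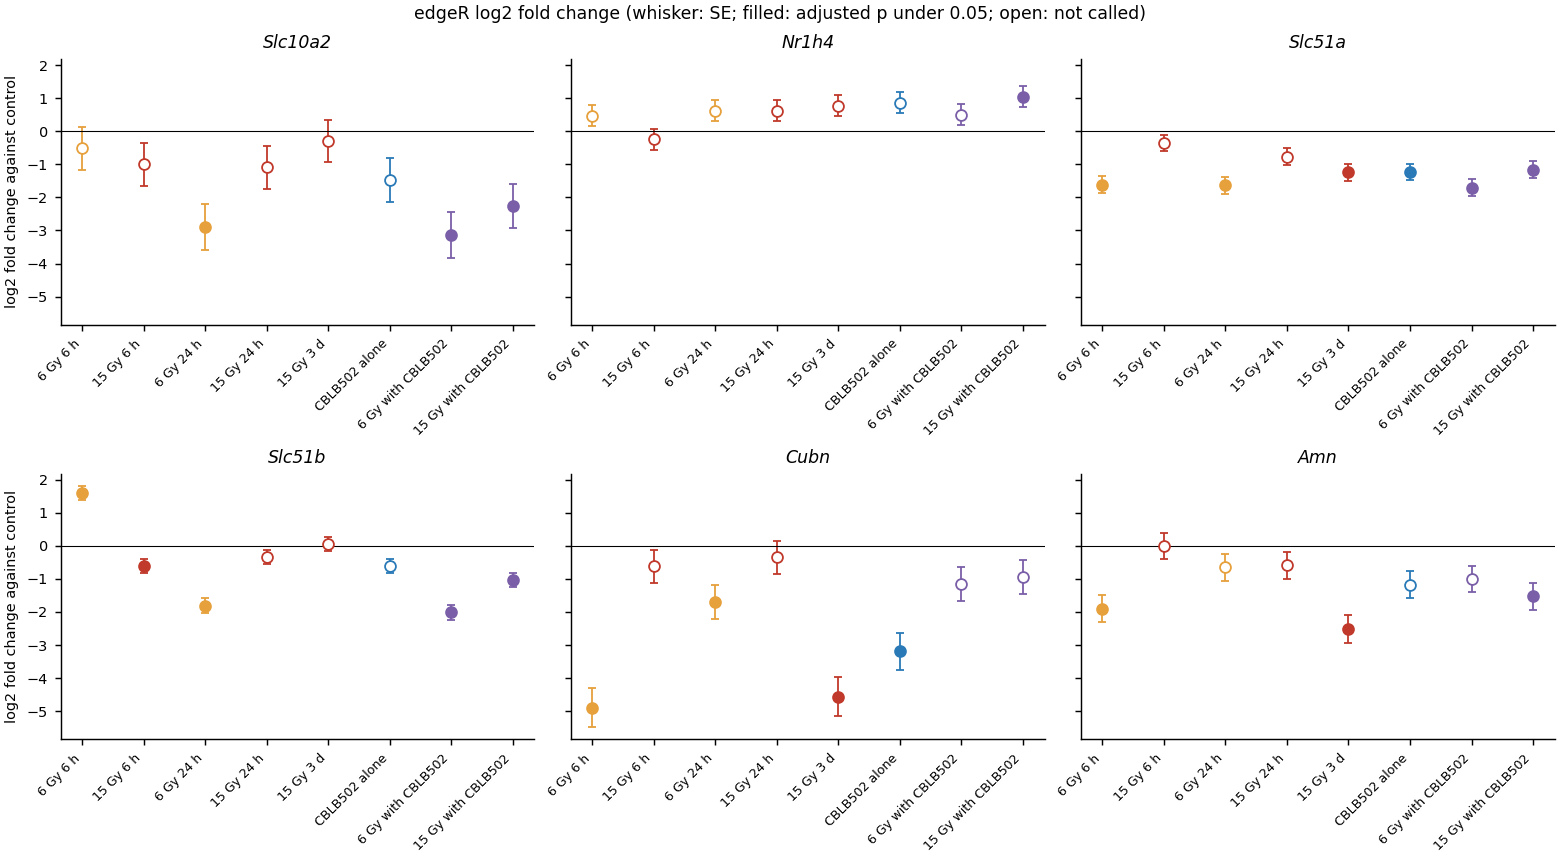
edgeR log2 fold change against the control (y axis, whisker SE) of 6 genes in the 8 treated groups (x axis), filled where the adjusted p was under 0.05. Nr0b2 is left out because its control libraries were all at 0. Slc51b at 6 Gy 6 h (1.60) is the one called rise outside Nr1h4 at 15 Gy with CBLB502, and Cubn reaches -4.89.

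**Figure D3:**
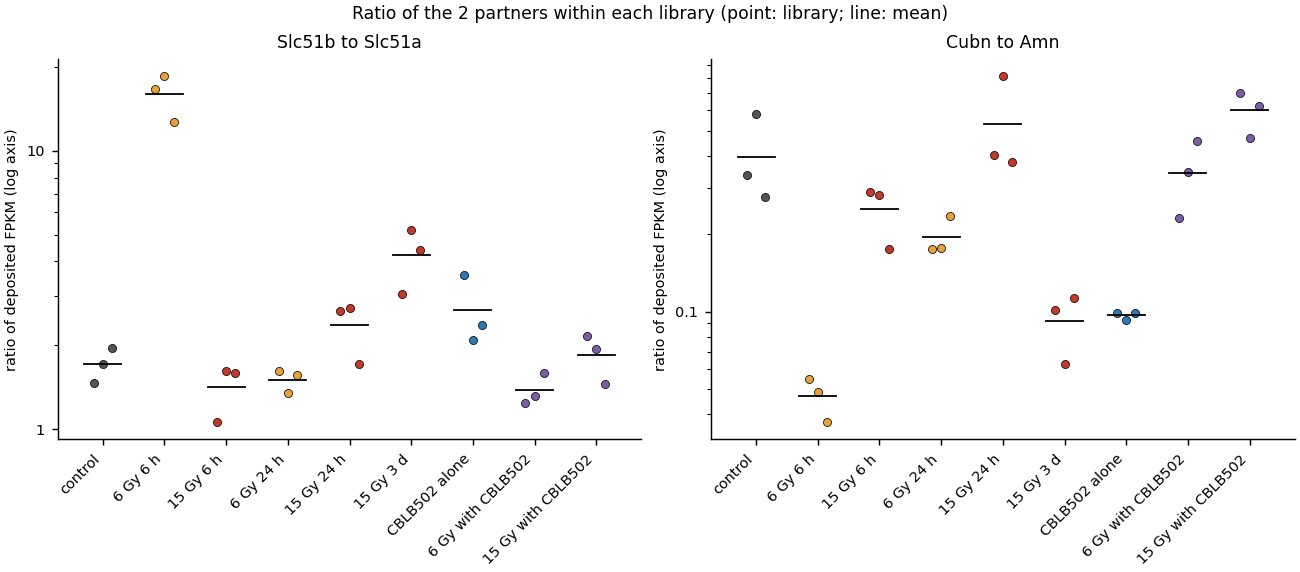
Ratio of deposited FPKM within each library (y axis, log scale) for Slc51b to Slc51a (left) and Cubn to Amn (right), by group (x axis). Points are libraries and lines are means. The 6 Gy 6 h libraries average 15.9 for the exporter pair and 0.0471 for the cobalamin receptor pair.

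Cubn, the ligand-binding chain of the cobalamin receptor (chromosome 2, 13276338 to 13491813), had the largest log2 fold changes of the 6 tested genes with counts in the control. It was at 566, 699 and 300.2 CPM in the control and at 31.8, 12.8 and 8.40 CPM at 6 Gy 6 h, a 29.5-fold fall in the mean (-4.89 ± 0.59, adjusted p = 3.1e-06, edgeR). At 15 Gy 3 d it was at 17.8, 12.9 and 35.6 CPM, 23.6-fold lower (-4.56 ± 0.58, adjusted p = 7.1e-06). Both falls held in all 15 alternatives. At the earlier times after 15 Gy Cubn overlapped the control: 379.5, 460.3 and 177 CPM at 15 Gy 6 h (-0.62 ± 0.51, adjusted p = 0.379) and 413, 411 and 416 CPM at 15 Gy 24 h (-0.34 ± 0.50, adjusted p = 0.766). The difference between doses at 6 h was itself called, 19.2-fold higher after 15 Gy than after 6 Gy (4.26 ± 0.58, adjusted p = 4.8e-06). So was the drop from 15 Gy 24 h to 15 Gy 3 d, 18.7-fold (-4.23 ± 0.58, adjusted p = 1.6e-05).

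CBLB502 alone also went with low Cubn, 50.0, 29.0 and 93.0 CPM, 9.11-fold below the control (-3.19 ± 0.55, adjusted p = 0.00224). This call was lost with the 2 groups fitted alone and with the proximal marker score as a covariate. In the irradiated groups given CBLB502 it was at 245, 224 and 345 CPM with 15 Gy (-0.94 ± 0.51, adjusted p = 0.214) and 121, 262 and 316 CPM with 6 Gy. At 6 Gy 24 h Cubn was at 108, 209 and 169 CPM and had fallen (-1.69 ± 0.52, adjusted p = 0.0167), a call lost without control replicate 2 or without 6 Gy 24 h replicate 1. Cubn is also abundant in kidney tubules, and the 6 tubule genes looked at summed to at most 0.376 CPM in any library.

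Amn, the membrane anchor of the receptor (chromosome 12, 111271095 to 111276426), fell at 6 Gy 6 h and at 15 Gy 3 d, as Cubn did, and at 15 Gy with CBLB502, where Cubn was not called. It was at 207, 149 and 133 CPM in the control, 71.5, 32.1 and 27.7 CPM at 6 Gy 6 h (3.73-fold lower, -1.90 ± 0.41, adjusted p = 0.00145) and 21.7, 25.3 and 39.0 CPM at 15 Gy 3 d (5.69-fold lower, -2.51 ± 0.42, adjusted p = 1.3e-04). At 15 Gy 6 h it was at 162, 200.4 and 125 CPM, within the range of the control apart from 1 library (-0.01 ± 0.40, adjusted p = 0.998, edgeR). With the proximal marker score as a covariate that difference was 0.86 and passed the test (adjusted p = 0.0120). The dose difference at 6 h was called (1.89 ± 0.41, adjusted p = 8.0e-04), as was the drop from 15 Gy 24 h, at 126, 62.4 and 135 CPM, to 3 d (-1.91 ± 0.41, adjusted p = 0.00160). All 4 of these calls held in every alternative run. With CBLB502 alone Amn was at 62.2, 38.4 and 116 CPM, all below the control, without passing the test (-1.17 ± 0.40, adjusted p = 0.0891). That difference passed with DESeq2, with either limma fit and without CBLB502 alone replicate 3, and its sign turned with the proximal marker score. With 15 Gy and CBLB502 it was at 43.0, 58.9 and 68.0 CPM and had fallen (-1.53 ± 0.41, adjusted p = 0.0131), a call lost without control replicate 1, without replicate 1 of the treated group and with the proximal marker score as a covariate. The 6 Gy 24 h groups, at 76.7, 147 and 88.4 CPM and, with CBLB502, at 64.6, 93.5 and 85.3 CPM, were not called, although the latter passed with DESeq2, with median-ratio scaling and with the 2 groups fitted alone.

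Within libraries the receptor's partners kept different proportions. The FPKM of Cubn over that of Amn was 0.398 ± 0.160 in the control, 0.0471 ± 0.00891 at 6 Gy 6 h, 0.0921 ± 0.0262 at 15 Gy 3 d and 0.0969 ± 0.00333 with CBLB502 alone (SD, n = 3). In the other 5 groups it lay between 0.195 ± 0.0348 (6 Gy 24 h) and 0.600 ± 0.118 (15 Gy with CBLB502). The 3 groups with the lowest ratio do not overlap the other 6. Scores of gut position and of the clock are set beside these ratios. The proximal marker score was -0.61 ± 0.14 in the control and, in the 3 groups with a low ratio, -0.09 ± 0.58 (6 Gy 6 h, overlapping the control), 0.21 ± 0.41 (15 Gy 3 d) and 0.71 ± 0.32 (CBLB502 alone). It was as high as at 15 Gy 3 d, within the spread, at 15 Gy 6 h (0.19 ± 0.41) and at 15 Gy with CBLB502 (0.34 ± 0.42), where the ratio was 0.249 ± 0.0650 and 0.600 ± 0.118. In the remaining groups the proximal score was -0.39 ± 0.65 (15 Gy 24 h), -0.17 ± 0.29 (6 Gy 24 h) and -0.20 ± 0.13 (6 Gy with CBLB502). A clock score (3 genes of one phase minus 6 of the opposite phase, log2) was -2.58 ± 0.35 in the control. In the 3 groups with a low ratio it was 2.51 ± 0.61 (6 Gy 6 h), 2.19 ± 0.76 (15 Gy 3 d) and -1.65 ± 1.04 (CBLB502 alone). After 15 Gy it was -2.45 ± 0.87 at 6 h, 1.19 ± 2.55 at 24 h and 2.35 ± 1.38 with CBLB502, where Cubn averaged 271 ± 64.5 CPM. At 24 h after 6 Gy it was -0.33 ± 0.13, and with CBLB502 -1.24 ± 0.11. The part of gut position and of time of day in these values was not tested.

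The calls in the set of 7 tested genes are set here beside the share called among all tested genes. At 6 Gy 6 h 2 were higher and 3 lower than in the control, where 28.4% of all tested genes were called (13.1% higher, 15.3% lower). At 15 Gy 6 h it was 1 higher and 1 lower, where 29.0% of all tested genes were called (12.2% higher, 16.8% lower). The 6 Gy 24 h group had 1 higher and 4 lower, and 33.0% of all tested genes were called (16.6% higher, 16.4% lower). At 15 Gy 24 h only Nr0b2 was called, and 4.94% of all tested genes were called (2.63% higher, 2.31% lower). By 15 Gy 3 d there were 1 higher and 3 lower, and 29.4% of all tested genes were called (13.9% higher, 15.6% lower). With CBLB502 alone it was 1 higher and 2 lower, and 5.74% of all tested genes were called (2.48% higher, 3.26% lower). With 15 Gy and CBLB502 it was 2 higher and 4 lower, and 16.9% of all tested genes were called (8.65% higher, 8.20% lower). With 6 Gy and CBLB502 it was 1 higher and 3 lower, and 37.3% of all tested genes were called (19.8% higher, 17.5% lower). These counts include Nr0b2, which the filter admitted only through the treated groups. The median log2 fold change of the 7 was negative in all 8 comparisons, from -0.29 (15 Gy 3 d) to -1.63 (6 Gy 24 h), while the median over all tested genes lay between 0.00 and 0.07. The 8 medians share the same control libraries. Each is the value of a single gene, called only at 6 Gy 24 h (Slc51a) and at 15 Gy with CBLB502 (Slc51b). Those at 15 Gy 3 d (Slc10a2) and with CBLB502 alone (Amn) changed sign with the proximal marker score. From 15 Gy 6 h to 24 h 1 gene was higher, and 32.2% of all tested genes were called (18.7% higher, 13.5% lower). From 24 h to 3 d 1 was higher and 2 lower, and 25.3% of all tested genes were called (11.2% higher, 14.1% lower).

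Other genes of bile acid handling came from a list of 31, of which 22 were tested. More of them fell than rose at 6 Gy 6 h, at 6 Gy 24 h with or without CBLB502, at 15 Gy 3 d and with CBLB502 alone. At 6 Gy 6 h, 7 of the 22 fell and 1 rose, with a median of -0.42 against 0.05 over all tested genes, of which 28.4% were called (13.1% higher, 15.3% lower). The organic anion and bile acid conjugate pump Abcc2 fell from 816 ± 117 to 50.8 ± 1.07 CPM (SD, n = 3, log2 fold change -4.01 ± 0.38, adjusted p = 1.6e-07, edgeR). The sterol transporter subunit Abcg5 fell by 1.08 ± 0.19 on the log2 scale (adjusted p = 2.2e-04), and the fatty acid receptor Ppara and the transcription factor Maf fell as well (-1.63 ± 0.36, adjusted p = 0.00181, and -0.95 ± 0.22, adjusted p = 0.00211). At 15 Gy 6 h, 3 rose and 2 fell (median 0.12), where 29.0% of all tested genes were called. The rises included the FXR partners Rxra (0.53 ± 0.14, adjusted p = 0.00597) and Rxrb (0.91 ± 0.21, adjusted p = 0.00247), and the falls were the glucocorticoid receptor Nr3c1 (-1.50 ± 0.16, adjusted p = 9.4e-07) and Maf (-1.06 ± 0.22, adjusted p = 8.9e-04). Between the doses at 6 h, 9 genes were higher and 2 lower after 15 Gy, where 43.2% of all tested genes were called. Among the higher was Abcc2 (3.58 ± 0.37, adjusted p = 1.9e-07).

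At 24 h after 15 Gy neither edgeR nor DESeq2 called any of the 22, where edgeR called 4.94% of all tested genes. At an unadjusted p under 0.05 there were 3 of the 22 and 2402 of all 11118. At 3 d, 11 of the 22 fell and 1 rose, with a median of -0.73, where 15.6% of all tested genes were lower and 13.9% higher. Abcg5 (-1.76 ± 0.20, adjusted p = 1.2e-06), Abcc2 (-2.26 ± 0.35, adjusted p = 6.4e-05), the oxysterol receptor Nr1h3 (-0.87 ± 0.13, adjusted p = 5.7e-05) and Maf (-1.08 ± 0.22, adjusted p = 7.6e-04) had the smallest p. The 1 rise, named after its value was seen, was Fgfr4, the receptor for Fgf15 in liver, from 0.142 ± 0.202 to 5.91 ± 1.00 CPM (5.37 ± 1.38, adjusted p = 0.00566). Fgfr4 averaged 1.58 ± 0.291 FPKM at 15 Gy 3 d and at most 0.285 FPKM in any other group. It thus passed the filter on low values only through the 15 Gy 3 d libraries, and its call was favoured by that filter. With CBLB502 alone 5 fell and none rose, where 3.26% of all tested genes were lower: Abcg5 (-1.36 ± 0.19, adjusted p = 4.3e-04), the bile acid conjugating enzyme Baat (-1.78 ± 0.34, adjusted p = 0.00448), Malrd1 (-0.81 ± 0.21, adjusted p = 0.0282), the sterol hydroxylase Cyp27a1 (-1.28 ± 0.34, adjusted p = 0.0316) and, named after its value was seen, Abcg8, the partner of Abcg5 (-1.17 ± 0.33, adjusted p = 0.0401). At 6 Gy 24 h, 5 fell and 1 rose, and with CBLB502 and 6 Gy the counts were also 5 and 1. These 6 of 22 are a smaller share than the 33.0% and 37.3% called among all tested genes. With 15 Gy and CBLB502 edgeR called none of the 22, where 16.9% of all tested genes were called. At an unadjusted p under 0.05 there were 6 of the 22 and 3435 of all 11118, and DESeq2 called 5 of the 22.

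Of 16 further cobalamin genes 7 were tested. At 6 Gy 6 h, 4 of them fell and none rose, where 15.3% of all tested genes were lower: the lysosomal cobalamin exporters Lmbrd1 (-0.92 ± 0.15, adjusted p = 9.0e-05, edgeR) and Abcd4 (-0.86 ± 0.22, adjusted p = 0.00473), the trafficking protein Mmadhc (-0.68 ± 0.18, adjusted p = 0.00706) and the plasma carrier Tcn2 (-0.45 ± 0.14, adjusted p = 0.0222). At 15 Gy 6 h, 2 rose and 2 fell, where 29.0% of all tested genes were called, and Tcn2 was on the other side (0.76 ± 0.14, adjusted p = 4.9e-04). The dose difference in Tcn2 was called (1.21 ± 0.15, adjusted p = 1.2e-06). Neither edgeR nor DESeq2 called any at 15 Gy 24 h or at 15 Gy with CBLB502. There edgeR called 4.94% and 16.9% of all tested genes. At an unadjusted p under 0.05 there were 1 and 2 of the 7, and 2402 and 3435 of all 11118. At 6 Gy 24 h 3 fell and none rose (33.0% of all called), and with 6 Gy and CBLB502 3 fell and 1 rose (37.3%). At 15 Gy 3 d, 4 fell and 1 rose (29.4%). With CBLB502 alone, where 5.74% of all tested genes were called, 1 rose, the adenosyltransferase Mmab (1.39 ± 0.31, adjusted p = 0.0114).

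**Figure D4:**
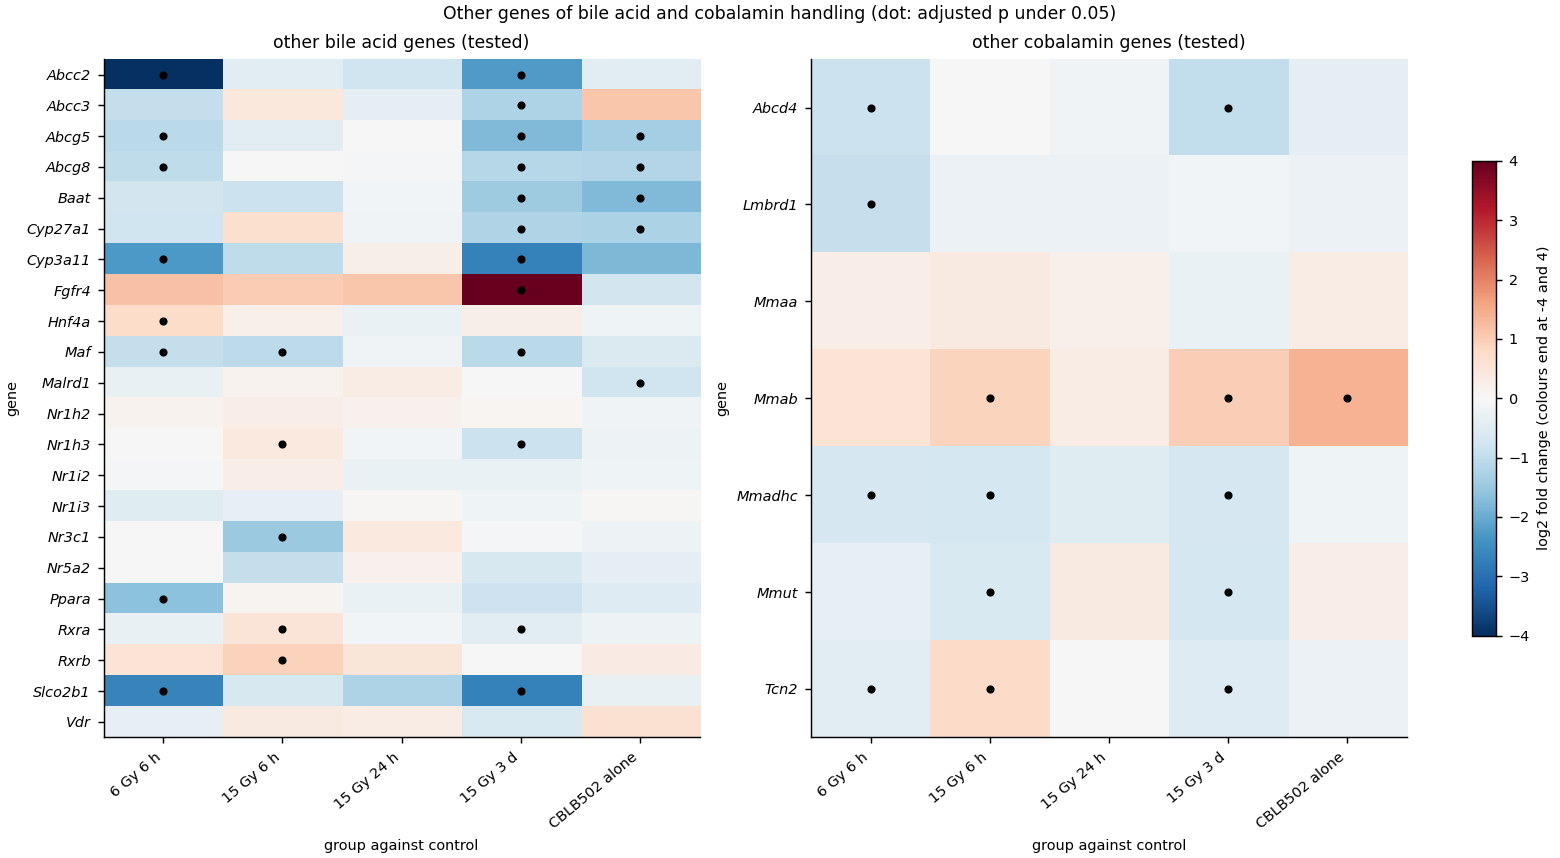
edgeR log2 fold change against the control (colour, red higher and blue lower, ending at -4 and 4) of the tested bile acid genes (left, 22) and cobalamin genes (right, 7) in 5 groups (x axis), with a dot where the adjusted p was under 0.05. Abcc2 at 6 Gy 6 h (-4.01) and Fgfr4 at 15 Gy 3 d (5.37) lie at the ends of the scale, and 15 Gy 24 h has no dot.

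The effect of CBLB502 within each radiation dose was not resolved for these genes. At 15 Gy 24 h, none of the 7 tested genes was called with CBLB502 against without, where edgeR called 0% of all tested genes. At an unadjusted p under 0.05 there were 3 of the 7 genes and 866 of all 11118. DESeq2 called none of the 7 and 63 of all genes, and both limma fits called none. The 3 genes were Slc51b, lower in all libraries of the CBLB502 group (-0.71 ± 0.21, unadjusted p = 0.00327, adjusted p = 0.411), Nr0b2, higher in all of them (2.22 ± 0.89, unadjusted p = 0.0222, adjusted p = 0.600), and Amn. Cubn gave -0.61 ± 0.51 (adjusted p = 0.806). At 6 Gy 24 h none was called by edgeR, again against 0% of all tested genes, and at an unadjusted p under 0.05 there were 0 of the 7 and 303 of all genes. DESeq2 called none of the 7 and 7 of all genes there, and limma on log2(FPKM + 1) none of the 7 and 9 of all genes.

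Whether the effect of radiation differed with CBLB502 present was tested as an interaction, the CBLB502 difference within a dose minus that without radiation. For 6 Gy, 2 of the 7 genes were called, Cubn (3.71 ± 0.74, adjusted p = 0.0313, edgeR) and Nr0b2 (adjusted p = 0.0239), and 0.324% of all tested genes were called (0.243% higher, 0.0809% lower). The Nr0b2 interaction rests on the control libraries at 0, and the gene was tested only because the treated groups passed the filter, so it is not read against that share. For Cubn, CBLB502 went with a lower level in unirradiated mice (57.3 ± 32.6 against 522 ± 203 CPM) and with overlapping levels after 6 Gy (233 ± 101 against 162 ± 51.0 CPM, SD, n = 3). For Nr0b2 the unirradiated difference was from 0 to 5.68 ± 3.19 CPM and that after 6 Gy from 3.78 ± 1.09 to 4.24 ± 1.52 CPM. For 15 Gy none was called by edgeR, and 0.225% of all tested genes were called (0.153% higher, 0.0720% lower). At an unadjusted p under 0.05 there were 3 of the 7 genes and 1045 of all 11118. DESeq2 called 2 of the 7, Cubn and Nr0b2, and 128 of all genes. Nr0b2 was tested there too only because the treated groups passed the filter. By edgeR the 15 Gy interaction of Cubn was 2.58 ± 0.72 (adjusted p = 0.178).

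The genes whose log2 CPM followed each of the 7 most closely over the 27 libraries are given as a description, since all share the libraries and their groups. Slc51b was followed by Clca4b (Pearson r = 0.95), S100a10 (0.94) and Stom (0.93), and Slc51a by Srd5a3 (0.93), Dpep1 (0.90) and Slc41a3 (0.89). Cubn was followed by Aqp1 (0.96), Aoc1 (0.94) and Ctdspl (0.93), and Amn by Slc23a1 (0.93), Glud1 (0.92) and Papss1 (0.90). For Slc10a2 the values were 0.85 for Selenok, Epcam and Map3k6. Nr0b2 was followed less closely, by Slc19a3 (0.84), Enpp1 (0.81) and Eif2b4 (0.81), and Nr1h4 least, by Nrd1 (0.78), Ireb2 (0.77) and Cab39l (0.75).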

How the data were processed

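RNA-seq of mouse intestine was analysed in 27 libraries that the labels divide into 9 groups of 3. The authors deposited a whole-number count and an FPKM value for each of 55401 genes and each library. The submitters' processing notes name Bowtie 0.12.2, HISAT2 2.0, StringTie 1.3.0 and build mm8, with no role or order, yet 94.2% of the gene identifiers found in GENCODE vM21 (build GRCm38) have the same start and end there, so coordinates are printed as deposited and read as GRCm38. Strand use in counting is not given in the sources used here. In the deposited FPKM, 0.0001 stands in for 0.

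Counts were scaled by TMM and fitted with edgeR 4.0.16 (R 4.3.3) over all 27 libraries with a quasi-likelihood test, after keeping the 11118 genes that reached 1 FPKM in 3 or more libraries, and p-values were Benjamini-Hochberg adjusted over all of them. The common dispersion was 0.0961, a biological coefficient of variation of 31.0%, and this spread limits precision more than depth does at 57.4 M to 87.1 M counts per library. Each interaction is a contrast in the same fit. The script was tested on simulated data for 15 Gy 24 h against the control alone, with a smaller dispersion than the one fitted here. That test held no interaction and gave no change to genes with very low counts. Alternatives were no filter, median-ratio scaling, DESeq2 1.42.0, limma 3.58.1 on log2(FPKM + 1) and log2(FPKM + 0.1), the replicate number as a block, the compared groups alone, the omission of the 6 libraries of 6 Gy at 24 h, a score of 15 proximal small intestine markers as covariate, and the omission of each library in turn. No libraries of a group were alike within sampling noise (chi-square per degree of freedom at least 143.5). A group at 0 counts is given a floor of 3 counts over the group, which covers counting error only.

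The 9 genes and the gene lists were chosen with earlier results of these data known. All 9 genes are described. From each list the up to 4 genes with the smallest adjusted p in a comparison could be named (any other is marked as named after its value was seen), and the 3 genes most like each tested gene leave out predicted genes and pseudogenes. An item of the bile acid list is not reported here and was left out of its counts. Promoter sequences are from RefSeq.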

Additional observations from a re-analysis of the deposited data

Results flagged for a closer look

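The difference made by CBLB502 was not the same in unirradiated mice and after 6 Gy for Cubn (adjusted p = 0.0313 for the interaction, edgeR) and for Nr0b2 (adjusted p = 0.0239). In both cases the irradiated arms are the 6 libraries that stand apart by their pancreas and fibroblast genes, and for Nr0b2 the unirradiated reference is at 0 counts, so no size is given. Nr0b2 was tested only because the treated groups passed the filter on low values, so its interaction was favoured by that filter. Each call was lost in 11 of 20 alternatives. For both genes these include the proximal marker score as covariate and the omission of control replicate 1 or 2, of CBLB502 alone replicate 1 or 2, of 6 Gy 24 h replicate 1 or 3 and of 6 Gy with CBLB502 replicate 2 or 3. With the proximal marker score 0 of all 11118 tested genes were called for the 6 Gy interaction, so that loss is not particular to these genes. The part of the pancreas and fibroblast RNA in these differences was not tested.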

How the results depend on the processing

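Of 40 called results of single genes, no filter kept 37, median-ratio scaling 39, DESeq2 40, limma 35 with a pseudocount of 1 and 37 with 0.1, the groups alone 32 and the proximal marker score 30, and none of these turned its direction. At 15 Gy 6 h the count of genes called was 1 in place of 2 with no filter, with limma on log2(FPKM + 1), without the 6 libraries of 6 Gy at 24 h and with the groups alone. At 15 Gy 24 h it was 0 in place of 1 with either limma fit and with the groups alone, and 2 with DESeq2. With CBLB502 alone it was 1 in place of 3 with the proximal score and with the groups alone, and at 15 Gy with CBLB502 it was 1 in place of 6 with the proximal score. From 15 Gy 6 h to 24 h it was 0 in place of 1 with no filter, median-ratio scaling, either limma fit, the groups alone and without the 6 libraries, and 3 with the proximal score. For the 15 Gy interaction DESeq2 called 2 in place of 0, and 128 of all 11118 genes. For the 6 Gy interaction the count was 1 in place of 2 with either limma fit and with the groups alone. It was 0 with the proximal score, where 0 of all tested genes were called. The causes were not tested.

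Of the 26 differences from the control that were not called for single genes, 7 changed sign under an alternative, 6 of them with the proximal score: Cubn at 15 Gy 6 h (0.03), Amn with CBLB502 alone (0.20), Slc10a2 at 15 Gy 6 h (0.09), at 15 Gy 3 d (0.63) and with CBLB502 alone (0.31), and Amn at 15 Gy 6 h (0.86, called). Amn at 15 Gy 6 h was also 0.05 with no filter, 0.01 with the replicate block, 0.04 with either limma fit and between -0.19 and 0.21 without 1 library. Without 1 library Slc10a2 at 15 Gy 3 d lay between -1.66 and 0.11, and Slc51b at 15 Gy 3 d between -0.29 and 0.29. Over all comparisons and interactions 22 of 65 uncalled values changed sign, 14 with the proximal score. Among the listed genes, Nr1h3 at 6 Gy 24 h was a called fall by edgeR (29.6 ± 0.983 against 42.1 ± 6.85 CPM in the control). It changed sign, to 0.07, with either limma fit. On the log2(FPKM + 0.1) scale the median of all genes moved by up to 0.58, and on the log2(FPKM + 1) scale by up to 0.40, both at 6 Gy with CBLB502.

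Leaving out 1 library gave counts of 5 to 6 at 6 Gy 6 h, 1 to 2 at 15 Gy 6 h, 4 to 5 at 6 Gy 24 h, 1 to 2 at 15 Gy 24 h, 2 to 4 with CBLB502 alone, 3 to 6 with 15 Gy and CBLB502, 4 to 5 with 6 Gy and CBLB502, 4 to 5 between doses at 6 h, 0 to 1 from 15 Gy 6 h to 24 h, 2 to 4 from 24 h to 3 d and 0 to 2 for the 6 Gy interaction.

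Deviations of same-numbered libraries correlated between -0.26 and 0.25 (median 0.01), and those of other numbers had a median of -0.00. Of 27 libraries 14 correlated best with their own number, and whether this is more than chance would give was not tested. With the replicate block 38 of the 40 calls were kept, the count from 15 Gy 6 h to 24 h was 0 in place of 1 and that of the 6 Gy interaction 1 in place of 2.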
